A study of Mus musculus with 7 samples.

Results

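The 8 genes described here encode enzymes of heme synthesis, together with the mitochondrial carrier that brings in glycine. They are Alas2, Alad, Uros, Urod, Cpox, Ppox, Fech and Slc25a38, and were chosen by name as the rows of the count table that carry those symbols in GENCODE M21, 8 of 49315 rows. Slc25a38 is a transporter, so the set is 7 enzyme genes and 1 carrier gene. RNA came from the bone marrow of chow-fed mice that had undergone hindlimb ischemia, a surgical interruption of blood flow to a leg, and was poly(A)-selected before sequencing. The 4 libraries KO 1 to KO 4 have the genotype miR-181a2b2-/- (KO), which lacks a cluster of 2 microRNA genes, and the 3 libraries flox 1 to flox 3 have miR-181a2b2flox/flox (flox), in which that cluster is flanked by recombination sites. The sample titles call the flox libraries WT. Age, strain and the cells in which the deletion was made are not given in the labels, and they do not state whether each library is its own animal. The p-values here thus reflect the spread of these libraries, which may be technical. The extraction text names white adipose tissue where the source label says bone marrow, and the source label was followed.

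Heme is an iron-holding ring that carries oxygen in haemoglobin. Its synthesis starts in the mitochondrion, where ALAS joins glycine to succinyl-CoA, moves to the cytosol for the ring-building steps, and returns to the mitochondrion for the last oxidations and the insertion of iron. Bone marrow makes most of the body's heme because red cell precursors need it for haemoglobin. These precursors use the erythroid isozyme gene Alas2, and other cells use Alas1. In bulk marrow RNA, fewer red cell precursors and less RNA per precursor cannot be told apart.

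The deleted cluster encodes miR-181a-5p and miR-181b-5p, and the sequences are shown because their shared seed, bases 2 to 8, is what was searched for in the 3' UTRs of the heme genes. RefSeq gives the mature forms on GRCm38.p6 as follows, 5' to 3', with the seed in capitals.
miR-181a-5p, chr2:38852741-38852763, plus strand: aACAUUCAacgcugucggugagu
miR-181b-5p, chr2:38853845-38853868, plus strand: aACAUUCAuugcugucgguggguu
The complementary letters TGAATGT, searched on the transcript strand in the longest 3' UTR that GENCODE M21 gives a gene, were found in 0 of the 8 heme genes. Over all 21024 genes with a 3' UTR, 16.4% held TGAATGT, and 5.28% held it followed by A. The searched 3' UTRs ran from 65 bases in Ppox to 5243 bases in Fech, and Alas2 has 147 bases.
The absence of a match says only that these letters are not in these windows.

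Total counts ran from 43110251 to 48320848 in the KO libraries and from 46151300 to 51688514 in the flox libraries. Flox 1 stood apart from the other libraries on the first principal component, at a score of -58.7 against 16.6 to 23.2 in KO and -14.2 and -5.48 in flox 2 and flox 3. Flox 2 stood apart on the second, at -41.9. The heme genes, and the gene lists whose direction or size turns on these libraries, are also given without them. The 15 red cell membrane genes, listed as erythroid markers, Slc4a1 among them, were all detected, with a summed level of 9943 to 14510 CPM in KO and 7371 to 12810 CPM in flox. CPM here are edgeR's library-size-scaled counts after TMM scaling.

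All 8 heme genes were detected with at least 3343 counts in every library, and all 8 passed the filter on low counts. None differed between KO and flox marrow beyond the spread between libraries. The log2 fold change of KO over flox was between 0.07 for Cpox and 0.30 for Alas2, with a median of 0.15, and all 8 were positive. By edgeR's quasi-likelihood test, 0 of the 8 passed an adjusted p of 0.05, against 0.145% of the 17920 genes tested, and 0 had an unadjusted p under 0.05, against 14.1% of all genes. DESeq2 and limma-voom also called 0 of the 8. Values in the KO and flox libraries overlapped for every one of the 8, where 13.6% of all tested genes had groups that did not overlap. Over all tested genes, 48.1% had a positive log2 fold change and the median was -0.01.

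Alas2, the erythroid enzyme of the first and rate-limiting step (chromosome X, 150547375 to 150570638, plus strand, GRCm38), had 2602, 2423, 3479 and 2408 CPM in KO 1 to KO 4, against 2858, 1588 and 2216 CPM in flox 1 to flox 3. KO 3 was the highest library and flox 2 the lowest, and flox 1 exceeded 3 of the 4 KO libraries. Its mean was 2728 ± 508 CPM in KO (SD, n = 4) and 2221 ± 635 CPM in flox (SD, n = 3). KO over flox came to 0.30 on the log2 scale (SE 0.21, edgeR adjusted p = 0.578, 95% interval -0.17 to 0.77), a 1.23-fold ratio with an interval of 0.887 to 1.70. Without flox 1 it was 0.52 and without flox 2 it was 0.12, and the lowest adjusted p with any library left out was 0.333. Alas2 lies on the X chromosome, where Xist, which marks female cells, was at most 0.455 CPM in the 7 libraries. Of the Y-linked genes, Ddx3y had 78.0 to 89.7 CPM in KO and 77.8 to 82.9 CPM in flox. Eif2s3y varied more, with 56.0, 34.6, 71.7 and 70.3 CPM in KO and 3.68, 20.5 and 34.4 CPM in flox, lowest in flox 1.

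The genes of the cytosolic steps gave lower log2 fold changes than Alas2. Alad, which joins a pair of aminolevulinate molecules into porphobilinogen (chromosome 4, 62509169 to 62519918, minus strand), had 186, 189, 274 and 207 CPM in KO, against 230, 137 and 211 CPM in flox. KO 3 was again highest and flox 2 lowest, and the other 5 libraries lay between 186 and 230 CPM. Its log2 fold change was 0.15 (SE 0.20, adjusted p = 0.811). Uros, which closes the ring as uroporphyrinogen III (chromosome 7, 133686243 to 133710072, minus strand), had 96.1, 85.6, 115 and 101 CPM in KO and 114, 68.5 and 86.5 CPM in flox. Flox 1 nearly equalled KO 3, so the groups shared their upper end. Its log2 fold change was 0.15 (SE 0.17, adjusted p = 0.758), and it was 0.36 without flox 1 and 0.01 without flox 2. Urod, which trims the side chains of the ring (chromosome 4, 116989965 to 116994413, minus strand), had 264, 282, 398 and 303 CPM in KO and 335, 216 and 298 CPM in flox. KO 1 and KO 2 were both below flox 3, and the log2 fold change was 0.14 (SE 0.18, adjusted p = 0.803).

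**Figure D1:**
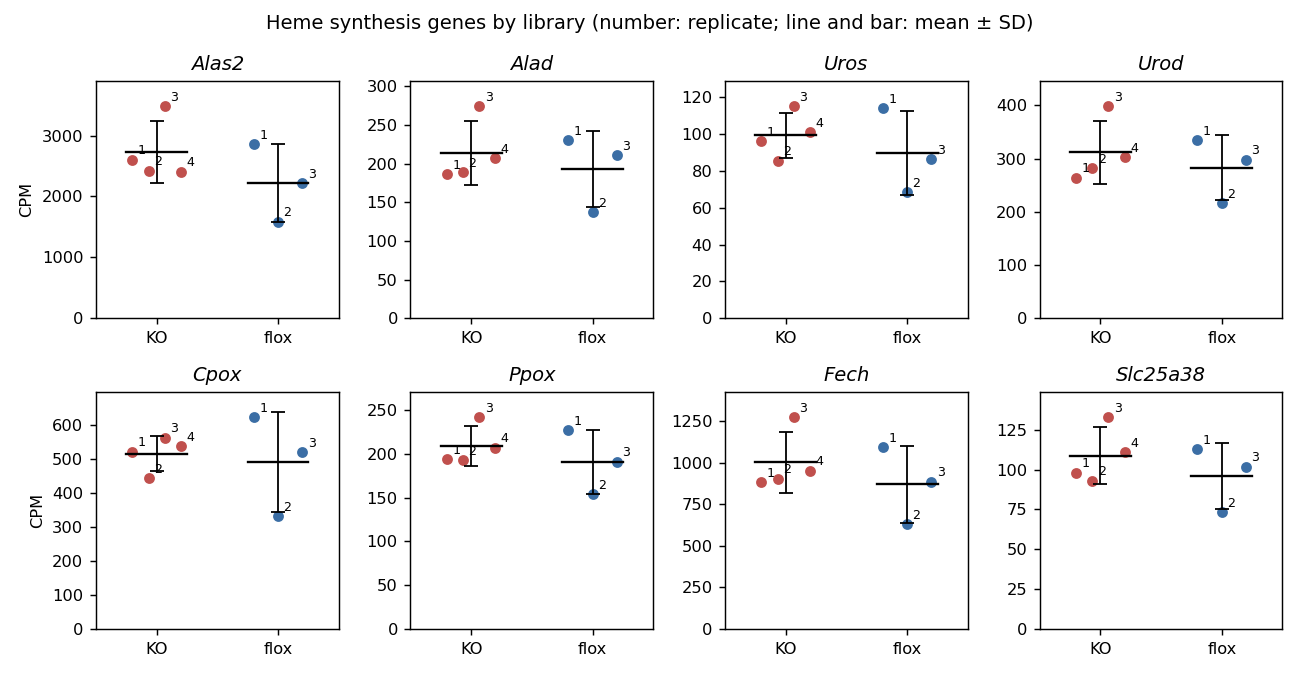
CPM of each heme synthesis gene in the 4 KO and 3 flox libraries, with 1 panel per gene; points are libraries labelled by replicate number, horizontal lines are means and bars are SD. Flox 2 is the lowest library in all 8 panels, and KO 3 is the highest in all but Cpox, where flox 1 is.

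The last steps run in the mitochondrion. Cpox, coproporphyrinogen oxidase (chromosome 16, 58670292 to 58717636, plus strand), had the smallest difference of the 8, with 521, 444, 562 and 537 CPM in KO and 623, 331 and 520 CPM in flox. Its highest and lowest libraries were both flox, and the flox mean of 491 ± 148 CPM (SD, n = 3) had a spread that covered all 4 KO values. KO over flox came to 0.07 on the log2 scale (SE 0.19, edgeR adjusted p = 0.922, 95% interval -0.37 to 0.52). Ppox, protoporphyrinogen oxidase (chromosome 1, 171275990 to 171281186, minus strand), varied least between libraries, with 194, 193, 242 and 207 CPM in KO and 227, 154 and 191 CPM in flox. It spanned a 1.57-fold range over the 7 libraries, against 2.19-fold for Alas2, and its log2 fold change was 0.13 (SE 0.13, adjusted p = 0.72).

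Fech, ferrochelatase, which inserts iron to complete heme (chromosome 18, 64452914 to 64490251, minus strand), had 883, 902, 1273 and 951 CPM in KO and 1092, 628 and 885 CPM in flox. Its pattern over libraries was close to that of Alas2, the enzyme at the other end of the pathway. KO over flox came to 0.21 on the log2 scale (SE 0.20, adjusted p = 0.71, 95% interval -0.25 to 0.66), second among the 8 to that of Alas2. Slc25a38, the carrier that supplies mitochondrial glycine for the first step (chromosome 9, 120110374 to 120124504, plus strand), had 98.1, 93.2, 133 and 111 CPM in KO and 113, 73.3 and 102 CPM in flox. Its log2 fold change was 0.18 (SE 0.17, adjusted p = 0.705).

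Exons of Alas2 overlap those of Apex2 on the opposite strand by 311 bases, and exons of Ppox overlap B4galt3 by 791 bases, 17.5% of the merged Ppox exons. Whether reads were counted by strand was not given in the sources used here. Apex2 had 786 to 1083 counts per library where Alas2 had 77478 to 162756, and B4galt3 had 1689 to 2389 counts where Ppox had 7521 to 11378.

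The size of every difference depended on which flox library was kept. Without flox 2 the median log2 fold change of the 8 genes was 0.01, 5 of the 8 were positive, and Cpox (-0.13), Alad (-0.03) and Urod (-0.01) were negative. Without flox 1 the median was 0.30 and all 8 were positive. In that fit 3 of the 8 had an unadjusted edgeR p under 0.05, against 2215 of the 18296 genes tested. After adjustment 0 of the 8 passed, against 14 over all genes. Without KO 3, the library with the highest summed level, the median was 0.08, and without KO 2 it was 0.22.

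**Figure D2:**
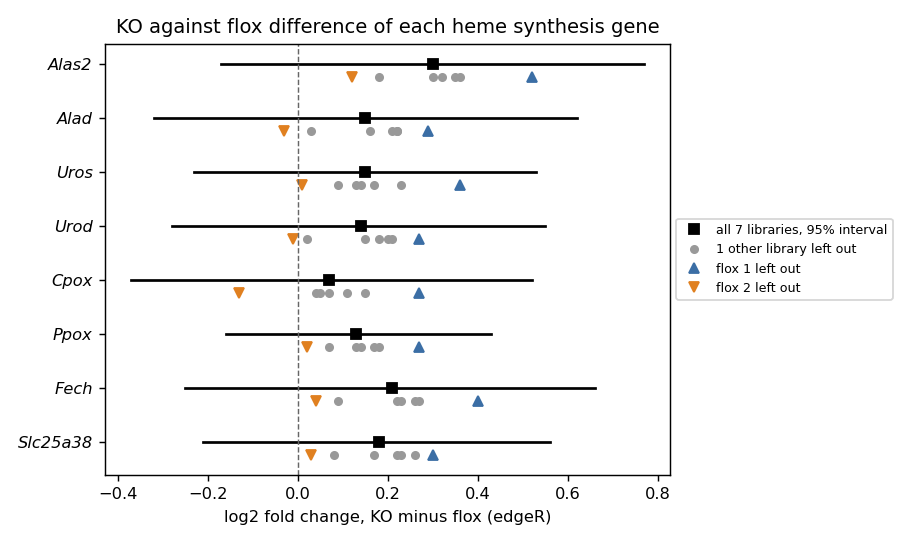
Log2 fold change of KO over flox for each heme synthesis gene, with squares for all 7 libraries, lines for the 95% interval, and smaller symbols below for fits with 1 library left out. Each interval includes 0; values move to between -0.13 and 0.12 without flox 2 and to between 0.27 and 0.52 without flox 1.

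Levels differed far more between the genes than between genotypes. Per kilobase of the longest coding transcript, Alas2 stood at 1339 ± 250 CPM in KO and 1090 ± 312 CPM in flox (SD, n = 4 and 3), 6.13 times the next gene, Urod, over the 7 libraries. Urod stood at 209 ± 40.1 and 190 ± 41.1 CPM per kilobase in KO and flox, and it exceeded Alad in 7 of 7 libraries. Alad (172 ± 32.8 and 155 ± 39.3) and Cpox (167 ± 16.3 and 159 ± 47.9) could not be ordered by transcript length, since Alad was above Cpox in 4 of 7 libraries. Fech followed at 153 ± 27.8 and 132 ± 35.4, below Cpox in 6 of 7 libraries. Ppox had 115 ± 12.6 in KO and 105 ± 19.9 in flox. Slc25a38 (60.7 ± 9.89 and 53.7 ± 11.4) and Uros (56.5 ± 6.86 and 50.8 ± 12.9) were lowest, and Slc25a38 was the higher of them in 6 of 7 libraries. With all annotated exons merged as the length, every level was lower, and the order of neighbours held in 7 of 7 libraries apart from Cpox over Fech, which held in 6.

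**Figure D3:**
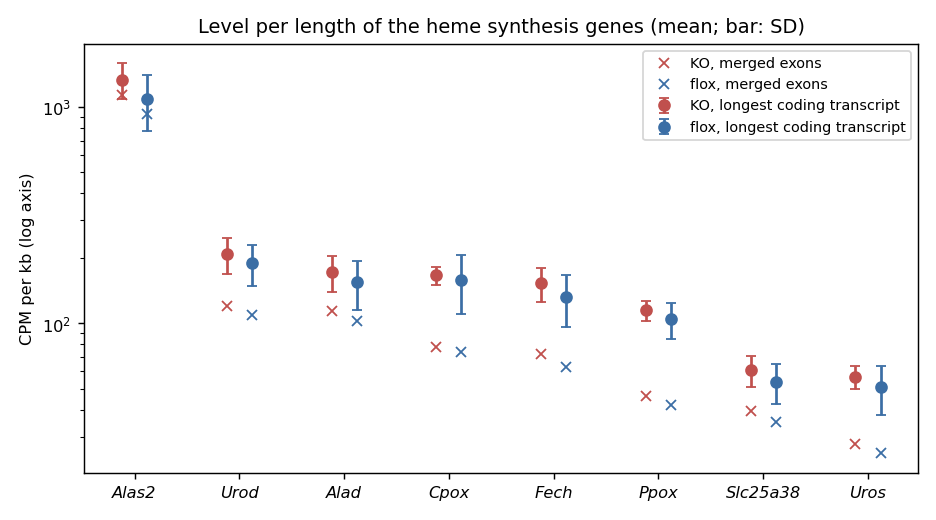
CPM per kilobase on a log axis for each heme synthesis gene in KO and flox libraries, with circles and SD bars for the longest coding transcript and crosses for merged exons. Alas2 lies above 1000 CPM per kilobase of transcript in both groups, and the other 7 genes lie between 50.8 and 209.

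The 8 genes moved together from library to library. Centred on each gene's own mean log2 CPM, flox 2 was low for all of them (from -0.63 for Alas2 to -0.37 for Ppox), KO 3 was high for all (from 0.18 for Cpox to 0.51 for Alas2) and flox 1 was high for all (from 0.14 for Slc25a38 to 0.33 for Cpox). KO 1, KO 2, KO 4 and flox 3 lay between -0.16 and 0.12. Alas1 had another order, with flox 2 highest at 0.60 and KO 4 lowest at -0.26. Over the 28 pairs of heme genes the root mean square difference between centred profiles had a median of 0.105 and ran from 0.047 for Alad and Urod to 0.171 for Alas2 and Cpox. From Alas1 the 8 genes differed by 0.431 to 0.553. These are descriptions over 7 libraries, which share depth and cell composition among all genes.

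**Figure D4:**
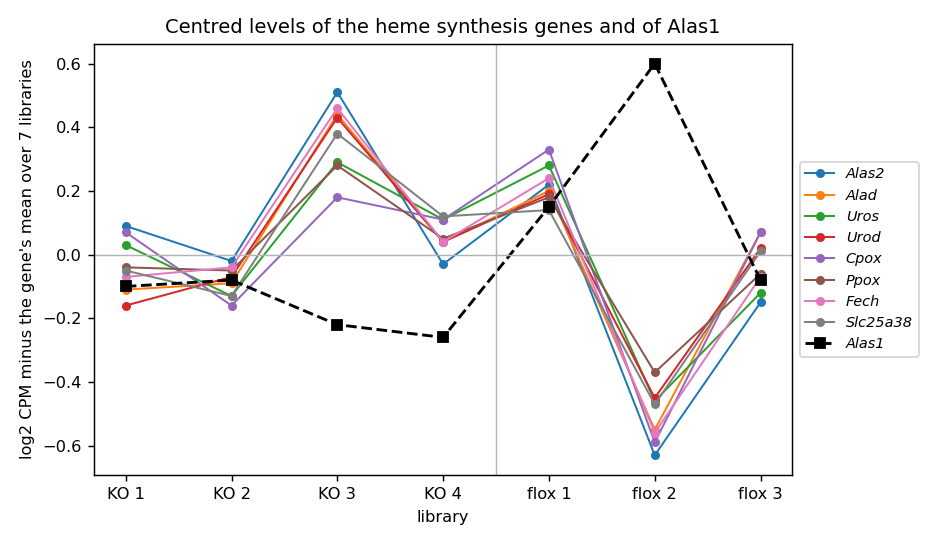
Log2 CPM of each heme synthesis gene and of Alas1 in the 7 libraries, minus the gene's mean over them; lines join the values of a gene and carry no order of libraries. The heme genes share a low point at flox 2, where Alas1 is highest at 0.60, and KO 3 and flox 1 are above 0 for all 8.

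Summed red cell membrane genes shared their highest and lowest libraries with the summed heme genes, though not the order of those between. The summed level of the 15 red cell membrane genes was highest in KO 3 (14510 CPM) and lowest in flox 2 (7371 CPM), as was that of the 8 heme genes, with 6475 CPM in KO 3 and 3196 CPM in flox 2. KO 1 and KO 2 lay below flox 3 in the membrane sum (10120 and 9943 CPM, against 10610 CPM) and above it in the heme sum (4844 and 4612 CPM, against 4510 CPM). Alas2 made up 49.1% to 53.7% of the heme sum. KO 1 and KO 2 were both above flox 3 for Alas2 and Ppox, and both below it for Alad, Urod and Slc25a38. For Uros, Cpox and Fech they lay on different sides of flox 3. All 15 membrane genes had a positive log2 fold change, with a median of 0.17 and a range of 0.11 to 0.24, and 0 of 15 passed by edgeR over all genes or had an unadjusted p under 0.05. Without flox 2, 6 of the 15 were positive, an alternative chosen after seeing the data. Neutrophil granule markers ran the other way. Their summed level was 33860 to 43030 CPM in KO and 42490 to 61940 CPM in flox, highest in flox 2, with 12 of 12 log2 fold changes negative and no marker at 0. None of the 12 passed, while 10 had an unadjusted p under 0.05, against 14.1% of all genes. Without flox 2, 3 of the 12 did, against 2007 of the 18325 genes tested. The median was -0.39, and -0.22 without flox 2. Summed B lineage markers were 823 to 1050 CPM in KO and 77.9 to 776 CPM in flox, lowest in flox 1. Of these markers 11 of 11 were positive, 0 passed, 2 had an unadjusted p under 0.05 and none was at 0. Their median log2 fold change was 1.07, or 0.55 without flox 1. In the fit without flox 1, 7 of the 11 had an unadjusted edgeR p under 0.05, against 2215 of the 18296 genes tested, and 0 passed. Without flox 2, 0 of the 11 had such a p. Summed megakaryocyte markers were 534 to 761 CPM in KO and 690 to 1299 CPM in flox, and stromal and endothelial markers 319 to 492 CPM in KO and 514 to 928 CPM in flox (10 of 10 negative in each, 0 passing). An unadjusted p under 0.05 was found for 9 of the 10 megakaryocyte markers and 8 of the 10 stromal and endothelial markers, and for 4 of 10 in each without flox 1. The medians were -0.65 and -0.81, or -0.37 and -0.62 without flox 1. All 10 intestinal epithelium markers passed and were higher in KO, at a summed 93.1 to 102 CPM against 41.1 to 42.3 CPM in flox, where 0.145% of all genes passed. The number passing was 6 without flox 1, of 14 genes called over all genes, and 4 without flox 2, of 4 called. It was 2 without KO 3, of 2 called, and 2 without KO 4, of 4 called. Each time 10 of 10 were positive with an unadjusted edgeR p under 0.05. Over all genes, 1850 to 2215 of the 17724 to 18325 tested had such a p in those fits. These markers were chosen with earlier results of these data known, and all 10 are among the 24 genes called higher over all genes. The part of these cell types in the heme gene values was not tested.

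Set against 9 red cell membrane genes in the same library, the heme genes varied little. The reference itself, the mean log2 CPM of those 9 genes, was 9.14 to 9.62 in KO and 8.69 to 9.52 in flox. Relative to it, Alas2 was 2.14, 2.10, 2.14 and 1.86 on the log2 scale in KO 1 to KO 4, against 1.96, 1.95 and 1.91 in flox 1 to flox 3. KO 1, KO 2 and KO 3 were above all flox libraries and KO 4 was below them, so the groups overlapped, and the difference of KO minus flox was 0.12 (SD over 7 libraries 0.12). Fech relative to the reference was 0.58, 0.68, 0.69 and 0.52 in KO and 0.57, 0.61 and 0.59 in flox, a difference of 0.03. Slc25a38 was almost fixed in KO, at -2.59, -2.59, -2.57 and -2.58, and was -2.71, -2.49 and -2.52 in flox. Differences for the other 5 genes were between -0.09 for Cpox and -0.03 for Alad and Uros, and the groups overlapped for all 8. With globins as the reference the differences ran from -0.13 for Cpox to 0.07 for Alas2. That reference weighs 5 globin genes equally, among them Hbb-y, at 0.128 to 0.379 CPM and a log2 fold change of -0.45. Differences without Hbb-y were not computed. Hba-a1, Hba-a2, Hbb-bs and Hbb-bt had log2 fold changes of 0.35 to 0.50, each above the 0.30 of Alas2. The positive sign for Alas2 thus rests on Hbb-y. A ratio of this kind shows unequal change between genes and gives no absolute level.

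**Figure D5:**
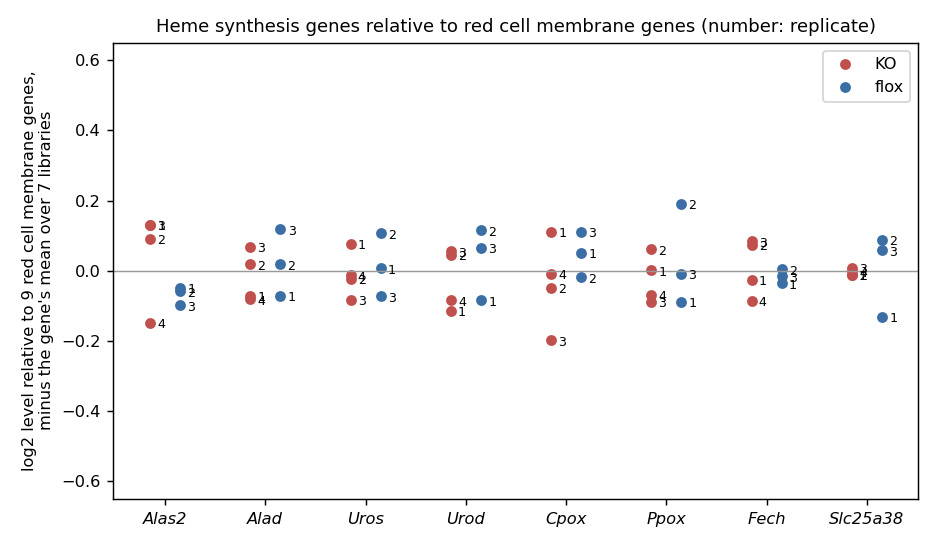
Log2 level of each heme synthesis gene relative to 9 red cell membrane genes of the same library, minus the gene's own mean over the 7 libraries; points are KO and flox libraries labelled by replicate number. All points lie within 0.2 of 0, and KO and flox points overlap for every gene.

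Alas1, the ALAS gene of non-erythroid cells, lies outside the set. Alas1 had 125, 127, 115 and 112 CPM in KO, against 149, 204 and 127 CPM in flox. All 4 KO libraries lay below all 3 flox libraries, with KO 2 and flox 3 both rounding to 127 CPM. Over all tested genes, 13.6% had groups that did not overlap in either direction, and 14.1% had an unadjusted p under 0.05. The log2 fold change of Alas1 was -0.42 (SE 0.14, unadjusted p = 0.0168, edgeR adjusted p = 0.267). Without flox 2 it was -0.19 (unadjusted p = 0.057).

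Genes that feed, carry and sense heme were counted from lists chosen with earlier results known, and 0 members of any of them passed by edgeR over all genes. Of 14 tested genes of heme and porphyrin transport, 11 had a positive log2 fold change (median 0.07, 0 with an unadjusted p under 0.05). Without flox 2 the majority was negative, with 3 of 15 tested positive (median -0.02). Slc25a39, a mitochondrial glutathione carrier, gave 0.26 (SE 0.18), Abcb10, a mitochondrial transporter of erythroid cells, gave 0.13 (SE 0.18), Fam210b gave 0.13 and Tspo, an outer mitochondrial membrane protein, gave -0.19 (SE 0.11). Of 17 genes of mitochondrial iron import and iron-sulphur cluster assembly, 12 were positive (median 0.11), and 1, the cluster scaffold gene Nfu1, had an unadjusted p under 0.05 (-0.23, SE 0.09, adjusted p = 0.289). Without flox 2 the median was 0.03 and Nfu1 gave -0.12. In that list Iba57, a late-acting assembly factor, gave 0.36 (SE 0.21; 0.18 without flox 2, 0.59 without flox 1) and Iscu, the main assembly scaffold, gave 0.15. Of 10 genes that supply glycine and succinyl-CoA or fold and degrade ALAS, 3 were positive (median -0.03), or 5 without flox 2 (median 0.00). Slc6a9, the plasma membrane glycine transporter of red cell precursors, gave 0.30 (SE 0.22), and 0.16 without flox 2 or 0.50 without flox 1, while Suclg1 gave -0.13, Shmt2 -0.14 and Clpx, an unfoldase that acts on ALAS, -0.07.

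Among genes that use, break down or sense heme, the globins had the highest median. Of 8 genes of heme breakdown and of heme a and c formation, 3 were positive (median -0.04), with Cox15 and Por both at -0.12, Blvra at -0.07 and Blvrb at 0.15. Heme and iron sensing genes had 4 of 9 positive (median -0.04), with the heme-regulated kinase gene Eif2ak1 at 0.10, the heme-binding repressor gene Bach1 at -0.09, Mafk at 0.15 and Mafg at -0.07. Iron uptake and storage genes had 5 of 9 positive (median 0.00), but 0 of 9 without flox 2 (median -0.11) and 8 of 9 without flox 1 (median 0.13). In that list were the iron exporter gene Slc40a1 at -0.16, the iron importer gene Slc11a2 at 0.14, Pcbp1 at -0.09 and Ftl1 at -0.08. Globin genes, whose products bind the heme, had 4 of 5 tested positive with a median of 0.39, above each of the 8 heme genes. Hba-a2 (0.50, SE 0.18, unadjusted p = 0.0221, adjusted p = 0.283) and Hbb-bt (0.42, SE 0.17, unadjusted p = 0.0344, adjusted p = 0.32) led them, with Hbb-bs at 0.39 and Hba-a1 at 0.35. Without flox 2 the globin median was 0.21 (6 tested), Hba-a2 gave 0.36 and Hbb-bt 0.27, and without flox 1 the median was 0.56. Copies of the globin genes are near identical, so how reads were split between them is uncertain.

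Among erythroid regulators, 9 of 11 were positive (median 0.10), but 3 of 11 without flox 2 (median -0.05). With all libraries, the erythropoietin receptor gene Epor gave 0.26, Klf1, a master regulator of red cell genes, 0.19, the adaptor gene Ldb1 0.14 and Nfe2 -0.09. Late erythroid and reticulocyte genes had 13 of 15 positive (median 0.17), or 9 of 15 without flox 2 (median 0.07), with Bpgm, which makes the haemoglobin effector bisphosphoglycerate, at 0.38, Ypel4 at 0.34, Isg20 at 0.27 and Mxi1 at -0.14. The list named early erythroid progenitor holds Gata2, Kit, Myb, Cpa3, Myc, Hlf and Cd34, genes that are not limited to red cell precursors. Its sum was highest in flox 2 (479 CPM), close to KO 1 (474 CPM) and KO 2 (471 CPM), and lowest in KO 3 (378 CPM). The heme sum was lowest in flox 2 and highest in KO 3. Of these 7, 2 were positive (median -0.20, or -0.09 with 3 positive without flox 2), with Kit, the stem cell factor receptor, at -0.25 (unadjusted p = 0.0428, adjusted p = 0.34), Cpa3 at -0.53, Hlf at -0.20 and Myb at 0.13. In each of these lists 0 members passed.

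For each heme gene, genes outside the set with the most similar profiles were sought over the 7 libraries. The search covered 14407 tested genes with a name, by the root mean square difference of centred log2 CPM. Other heme genes were left out of it. The 5 nearest to Alas2 were Fam220a (0.0479), Slfn14 (0.0537), Plekha6 (0.058), Bpgm (0.0663) and Ube2l6 (0.0677), and their log2 fold changes were 0.23 to 0.38. The median gene differed from Alas2 by 0.373, 37 genes (0.257%) lay within 0.1, and 17 were nearer than Fech, the heme gene closest to Alas2. Alad was nearest to Rhd (0.044), Prdx2 (0.0449) and Trim10 (0.049), and Urod to Prdx2 (0.0303) and Tspo2 (0.0308). Fech was nearest to Cdr2 (0.0175), Epb41 (0.0355) and Specc1 (0.0399). Uros was nearest to Herc1 (0.029), March8 (0.0361) and Kel (0.0378), and Slc25a38 to Kcnn4 (0.0302), Hagh (0.0317) and Ubac1 (0.0332). Ppox was nearest to Cln8 (0.0337), Psmf1 (0.0339) and Arhgap21 (0.0381). Cpox had other neighbours, Nipa1 (0.0438), Zbtb46 (0.0453) and Ntn4 (0.0518), whose log2 fold changes were 0.00 to 0.04.

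Because the heme genes moved together, their promoters were read for letters bound by the erythroid factors GATA1 and KLF1. RefSeq promoter windows on GRCm38.p6, from 250 bases before to 50 after a start site, were at hand for 7 of the 8 genes, in 9 windows, since Alad and Uros have a pair of start sites each. The GATA motif was searched as AGATAA or AGATAG, and also as TGATAA or TGATAG. The letters of the CACC box motif were CCNCNCCC. Each was searched on either strand and with overlaps counted. GATA letters stood in 3 of the 9 windows, those of Alas2, Cpox and 1 of Uros, against 29.8% of all 32851 windows. CACC box letters stood in 8 of the 9, against 49.5% of all, and both kinds in 2 of the 9, Alas2 and Cpox, against 10.2% of all. The pair of Alad windows overlap and share CACC box letters, so the windows are not all separate. Both windows of Alas1, which also overlap, held CACC box letters and no GATA letters, though its profile was unlike those of the heme genes.

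The windows of Alas2, Cpox and Uros with GATA letters are shown, and that of Urod as a window without them. The profile of Urod differed by 0.115 from that of Uros, 0.136 from Alas2 and 0.157 from Cpox. Each was above the median of 0.105 over pairs of heme genes. Matches are in capitals, 5' to 3' along the gene, and a match on the other strand reads as its complement (TTATCT for AGATAA).
Alas2, chrX:150547167-150547466, plus strand: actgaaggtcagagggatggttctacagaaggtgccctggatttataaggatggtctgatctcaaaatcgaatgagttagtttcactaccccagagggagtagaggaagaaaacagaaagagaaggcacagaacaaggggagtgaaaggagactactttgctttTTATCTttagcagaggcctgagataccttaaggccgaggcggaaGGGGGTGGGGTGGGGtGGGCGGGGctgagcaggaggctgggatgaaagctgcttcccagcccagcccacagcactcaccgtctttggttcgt
Cpox, chr16:58669958-58670257, plus strand: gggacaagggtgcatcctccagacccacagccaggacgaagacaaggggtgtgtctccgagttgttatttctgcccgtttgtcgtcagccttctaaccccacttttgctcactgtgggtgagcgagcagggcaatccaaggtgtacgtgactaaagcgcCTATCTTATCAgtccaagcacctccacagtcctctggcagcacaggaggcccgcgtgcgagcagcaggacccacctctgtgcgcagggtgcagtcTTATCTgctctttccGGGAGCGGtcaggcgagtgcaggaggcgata
Uros, chr7:133702451-133702750, minus strand: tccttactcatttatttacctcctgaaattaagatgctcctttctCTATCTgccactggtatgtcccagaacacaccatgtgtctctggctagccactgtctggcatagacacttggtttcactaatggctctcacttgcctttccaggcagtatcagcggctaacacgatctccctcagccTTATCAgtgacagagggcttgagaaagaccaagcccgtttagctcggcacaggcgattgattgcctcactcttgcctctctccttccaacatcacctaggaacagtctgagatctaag
Urod, chr4:116994364-116994663, minus strand: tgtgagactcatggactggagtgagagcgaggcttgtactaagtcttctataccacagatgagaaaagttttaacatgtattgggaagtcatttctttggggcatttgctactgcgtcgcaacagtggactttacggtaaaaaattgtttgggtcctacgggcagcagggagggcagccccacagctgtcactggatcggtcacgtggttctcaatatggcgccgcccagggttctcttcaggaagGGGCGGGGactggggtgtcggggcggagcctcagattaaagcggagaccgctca
In Alas2 the GATA match starts at position -86 from the start site and 4 CACC box matches start at -42, -40, -35 and -26, neighbours among the first 3 overlapping. Cpox holds GATA matches at -91, -86 and 5, the first and second of them overlapping, and a CACC box match at 20. The Uros window holds GATA matches at -205 and -68, and the Urod window a single CACC box match at -4. Alas2 and Cpox, the windows with both kinds of letters, had the most unlike profiles of the 28 pairs of heme genes. These matches describe letters only.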

How the data were processed

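Poly(A)-selected RNA from 4 KO and 3 flox mouse bone marrow samples was sequenced, per the labels' protocols. The authors deposited raw read counts per Ensembl gene in 1 table; the submitters' processing notes list the genome build GRCm38 and, as tools, Subread 1.5.2 (featureCounts), STAR 2.5.2b and Trimmomatic 0.36. Which annotation release was used, and how strand and multi-mapping reads were handled, was not given in the sources used here. Columns were matched to samples by library code, and groups follow the genotype label. Symbols came from GENCODE M21, which matched 49056 of 49315 IDs. No pair of libraries of the same group agreed within sampling noise (chi-square per degree of freedom 19.0 to 90.6).

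Counts were filtered with filterByExpr (minimum count 10), scaled by TMM and fitted over all 17920 tested genes with edgeR 4.0.16 (robust glmQLFit and glmQLFTest, two-sided, Benjamini-Hochberg, threshold 0.05) in R 4.3.3, without a replicate block; standard errors derive from the F statistic. DESeq2 1.42.0 and limma 3.58.1 were alternatives. Log2 CPM used a prior count of 2, and the fit was tested on simulated data. Same-numbered KO and flox libraries did not deviate together (correlations -0.0221, 0.0768 and 0.0228). Named genes are the 8 members, up to 4 genes of lowest p per pathway list, and the nearest profiles. Members and lists were chosen with earlier results of these data known. Ahsp is not analysed here. Some genes that the naming rule covers are not reported here.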

Additional observations from a re-analysis of the deposited data

Results flagged for a closer look

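Alas2 relative to the 9 red cell membrane genes stood at 1.86 (log2 scale) in KO 4, apart from 2.10 to 2.14 in the other KO libraries, and 1.91 to 1.96 in flox. It was marked because its gap to the nearest KO library exceeded the limit of Dixon's test for 4 samples (0.874 of the range). Among 16 groups of KO values examined it was the only one past that limit, and chance marks about 1 in 20. Without KO 4 the difference of KO minus flox was 0.19, against 0.12 with it. In CPM, Alas2 in KO 4 (2408) was close to KO 2 (2423).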

How the results depend on the processing

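The call that 0 of the 8 heme genes passed held under every alternative run: other scalings (RLE, upper quartile, library size alone), DESeq2, limma-voom, no filter, a count minimum of 50, a non-robust fit, haemoglobin and mitochondrial genes removed, the replicate block and each library left out. All 8 log2 fold changes stayed positive in these except without flox 2, where Cpox gave -0.13, Alad -0.03 and Urod -0.01; the cause was not tested. Without flox 1 these gave 0.27 (Cpox), 0.29 (Alad) and 0.27 (Urod). The median of the 8 was 0.15 to 0.17 with all libraries and ran from 0.01 to 0.30 with 1 library left out. The count of 26 genes called over all genes was 365 with DESeq2, 13 with limma-voom, 112 with no filter, 16 with the non-robust fit and 4 with the replicate block, and ran from 2 to 14 with 1 library left out. Shared replicate numbers pair no libraries in the labels, and the replicate block moved the Alas2 log2 fold change to 0.38 and called 0 of the 8 genes. Levels relative to the red cell membrane genes moved by less than their spread under every alternative run. The globin reference among these includes Hbb-y, and levels relative to globins without Hbb-y were not computed. With 1 library left out Alas2 ran from 0.09 to 0.19 and Cpox from -0.13 to -0.03. Every heme gene had at least 3343 counts per library.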

Other observations

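The balance of the ALAS isozymes, chosen after its values were seen, differed between libraries mostly through flox 2. Per kilobase of the longest coding transcript, Alas2 exceeded Alas1 by 34.7, 31.8, 50.3 and 35.8 times in KO 1 to KO 4, against 31.9, 13 and 29.0 times in flox 1 to flox 3. The mean log2 ratio differed by 0.71 (KO minus flox), and by 0.30 without flox 2. KO 2, at 31.8, lay below flox 1, at 31.9, so the groups overlapped.

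Hmox1, which opens the heme ring for its breakdown in macrophages, had 228, 200, 228 and 170 CPM in KO and 310, 116 and 183 CPM in flox, with KO over flox at 0.02 on the log2 scale (SE 0.32, adjusted p = 0.986 by edgeR). Its highest and lowest libraries were both flox. Tfrc, the transferrin receptor that brings iron into red cell precursors, had 856, 668, 796 and 735 CPM in KO and 910, 511 and 754 CPM in flox (0.07, SE 0.18, adjusted p = 0.904 by edgeR), again with both extremes in flox. Both genes were named after their values were seen.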
